A study of Mus musculus with 2 samples.

Results

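CTCF ChIP-seq peaks lying within 2 Mb of the distal ends of the 19 mouse autosomes were described in the male embryonic stem cell line E14TG2a.4. The line is of strain 129/Ola, and the labels give its stage as embryonic, at an age of 3.5 day. A CTCF antibody was used, no treatment is named, and there are 2 libraries, named biological replicate 1 and biological replicate 2, with no second condition. They were drawn from a single donor line, so the spread between them is that of cultures or preparations of that line. Members were the peaks of the authors' conservative mm10 set whose summit lay in the last 2 Mb of the chromosome length. There were 738 of them among 42335 autosomal peaks, which is 1.74%. Their windows make up 1.58% of the autosomal length beyond the proximal assembly gaps, with the terminal gap of 100 kb of each window counted in. The members were set against the rest of the same chromosomes, with 41597 peaks, and against the first 2 Mb after the proximal assembly gap, with 652 peaks. Within the conservative set the rule used position only. The set itself was thresholded by the authors on the reproducibility of peaks between these 2 libraries, for members and the rest alike.

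CTCF is a DNA-binding protein with a row of zinc fingers that read a long, asymmetric motif. It halts the cohesin complex as it extrudes chromatin loops, so CTCF sites lie at loop anchors and at the borders of topologically associating domains, and some of them block enhancers from reaching the wrong promoter. All mouse autosomes are telocentric in form. The centromere with its satellite repeats lies next to the proximal end, where the assembly has a gap of 3 Mb, and the gene-bearing arm runs to the distal end. There the assembly stops in another short gap ahead of the telomere repeats. The last stretch of an arm is therefore the only chromosome end for which mapped peaks can be counted up to unique sequence near a telomere.

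Sequences from some of the strongest distal peaks with a called CTCF motif are shown first, and peaks without one were not eligible. Genome sequence was used on mm9 only, so they come from the deposited mm9 pooled list, and the capitals mark the 19 bp CTCF motif, written 5′ to 3′ on the strand of the motif and named by the nearest protein-coding gene.
Actrt2, chr4:154048853-154048903, minus strand: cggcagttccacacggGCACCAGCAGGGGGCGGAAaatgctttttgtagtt
Zfp385a, chr15:103144064-103144114, minus strand: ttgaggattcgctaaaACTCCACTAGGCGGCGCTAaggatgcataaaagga
Rdh5, chr10:128350424-128350474, minus strand: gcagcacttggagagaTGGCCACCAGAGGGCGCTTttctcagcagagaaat
Osbpl5, chr7:150892735-150892785, plus strand: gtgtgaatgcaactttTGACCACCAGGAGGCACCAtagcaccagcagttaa
Nnt, chr13:120130832-120130882, minus strand: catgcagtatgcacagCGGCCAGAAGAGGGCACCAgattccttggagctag
Itgbl1, chr14:124060506-124060556, minus strand: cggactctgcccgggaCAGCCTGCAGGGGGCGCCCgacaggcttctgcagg
The peaks near Actrt2, Zfp385a and Rdh5 lay between genes and had fold enrichments of 28.1, 27.7 and 27.0 in the pooled mm9 list. Those at Osbpl5 and Nnt lay in introns, with fold enrichments of 26.6 and 22.2, and the Nnt motif had the highest score of the strongest motif-bearing distal peaks of each chromosome, 26.0 bits. The Itgbl1 motif lay in an exon within 1000 bp of a transcription start, and its peak had a fold enrichment of 17.9. In replicates 1 and 2 the Actrt2 peak had fold enrichments of 33.5 and 34.9, and the Itgbl1 peak 19.01 and 20.3. The Itgbl1 peak was the lowest of these 6 in both libraries.

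Peak density differed widely between the 19 distal windows, and they had no common direction relative to the rest of their chromosomes. The windows of chromosomes 2, 4, 5, 7 and 15 held over 1.5 times the density of the rest of their chromosome, and those of chromosomes 3, 8, 12, 17 and 18 held less than 0.5 of it. Counts per window ran from 5 peaks on chromosome 3 to 91 on chromosome 5, with a median of 25. As densities, the windows held 19.4 ± 15.1 peaks per Mb, the rest of the chromosomes 17.7 ± 3.81 and the proximal windows 17.2 ± 13.5 (SD, n = 19 chromosomes each). The 5 dense windows together held 405 of the 738 members, or 54.9%.

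**Figure D1:**
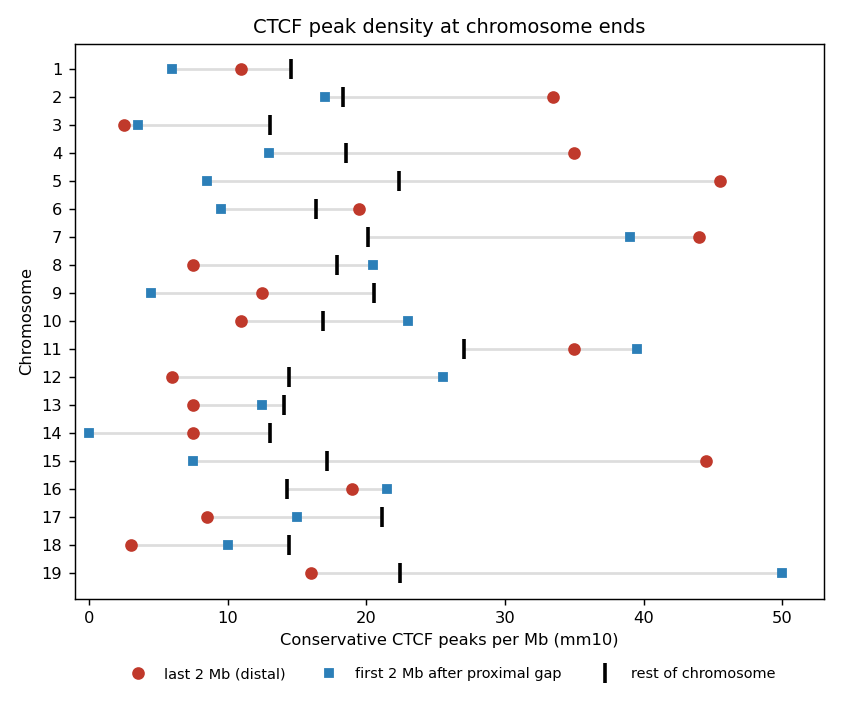
Conservative CTCF peaks per Mb on each autosome, in the last 2 Mb (circles), in the first 2 Mb after the proximal gap (squares) and in the rest of the chromosome (bars). The distal circles lie between 2.5 and 45.5 peaks per Mb and fall on both sides of the bars, 8 above and 11 below.

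Each chromosome was then taken as a pair of its distal window and its rest. The mean log2 ratio of densities was -0.32 ± 1.12 (SD, n = 19), a ratio of 0.801 with a 95% t interval of 0.551 to 1.17. An exact two-sided permutation test, which flips the signs of the 19 differences in all ways, gave p = 0.229, and adjusted p = 0.877 over the 11 tests made. Pooled over chromosomes the distal density was 1.11 times that of the rest, and the plain mean of the 19 ratios was 1.04. The mean of logs is lower because the sparse windows weigh more on the log scale. These distal densities count the terminal gap of 100 kb as part of the window, which lowers them. Without that gap in the distal length the mean log2 ratio was -0.246. With the distal end set at the last entry of the pooled list it was -0.136 (n = 19, exact permutation, adjusted p = 0.877 for both). Against the proximal windows the mean log2 ratio was 0.29 ± 1.78, with 9 chromosomes higher and 10 lower (exact permutation p = 0.498, adjusted p = 0.877). Its 95% t interval, 0.674 to 2.22 as a ratio, leaves room for differences of a large size in both directions. On chromosome 14 the proximal window held 0 peaks and the authors' pooled list had 0 entries there, background included, so that 0.5 was added to both its counts. Without chromosome 14 the mean log2 ratio was 0.032 (n = 18, exact permutation, adjusted p = 0.924), and with proximal windows that start at the first entry of the pooled list it was 0.056 (n = 19, adjusted p = 0.877), so that chromosome carried most of the value. Chromosomes are units within 1 cell line, so these p-values concern the spread between chromosomes and not between animals.

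The spread among distal windows was set beside that of other windows of the same length. Cut into 2 Mb tiles from the distal end, the distal windows held 38.8 ± 30.1 peaks (SD, n = 19), and the other 1173 tiles 35.2 ± 27.4 peaks. No distal window was the densest tile of its chromosome. The one on chromosome 15 ranked 6 of 50 and the one on chromosome 7 ranked 7 of 71, whereas chromosome 3 ranked 72 of 78. At least 67 peaks were found in 6 of the 19 distal windows (31.6%) and in 154 of the other tiles (13.1%), and at most 6 peaks in 2 distal windows (10.5%) and 124 other tiles (10.6%). Both limits were chosen after the values were seen, and these shares were not tested.

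The densest window was that of chromosome 5, and a single gene held much of it. Fry, which encodes a large protein of the furry family, is 379 kb long (mm10, chr5:150118618-150497753) and had 39 members inside it, 5.28% of all members and 10.3 per 100 kb. The same gene held 40 summits in replicate 1's own list and 40 in replicate 2's, each cut to as many entries as the conservative set has. By number of summits inside, it ranked 5 of 20661 autosomal coding genes, and by summits per length 47 of the 4724 genes of at least 50 kb. Pooled signals inside Fry ran from 24.7 through a median of 101 to 264, and the median spacing of its summits was 8.15 kb.

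The 4 strongest Fry peaks of the mm9 pooled list that carry the motif are printed to show what recurs along the gene, again with the motif in capitals.
Fry, chr5:151244412-151244462, plus strand: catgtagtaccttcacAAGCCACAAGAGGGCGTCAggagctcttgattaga
Fry, chr5:151032526-151032576, plus strand: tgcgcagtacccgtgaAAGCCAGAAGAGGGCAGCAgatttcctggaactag
Fry, chr5:151060507-151060557, plus strand: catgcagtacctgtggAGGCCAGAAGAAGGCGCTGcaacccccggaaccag
Fry, chr5:150948734-150948784, plus strand: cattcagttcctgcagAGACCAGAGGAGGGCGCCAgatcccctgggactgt
All 4 lay in introns with the motif on the plus strand, which is the strand of the gene, and had fold enrichments of 25.5, 22.8, 21.1 and 20.5. The flank before the motif is alike in several of them. The letters CAGTNCC, with N for any base, were therefore counted in the 16 bases 5′ of the motif, on its strand. They stood there in 7 of the 17 motif-bearing Fry peaks, but 3 of the 7 are among the 4 printed ones, from which the letters were read. In the other 13 Fry peaks they stood in 4, or 30.8% (95% Clopper-Pearson interval 9.09 to 61.4). In all distal motif peaks the share was 48 of 389, or 12.3% (9.24 to 16.03), and in the rest of the autosomes 11.7% (11.2 to 12.2). Without Fry the distal share was 11.02%. Rodent B2 short interspersed elements are known to have carried CTCF motifs to many places, but no repeat annotation was used here, and the shares were not tested. Over all 17 Fry motifs, 9 were on the plus strand and 8 on the minus strand.

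Beside Fry, the chromosome 5 window held 8 members in Rxfp2, a receptor of the relaxin family, at 12.5 per 100 kb, and 12 in Stard13, a GTPase-activating protein, at 3.07 per 100 kb. Pds5b, a regulator of cohesin and the only gene of the cohesin list in any distal window, had 2 members inside, with a strongest signal of 84.5. Only 12 coding genes lay in this window, which gave 7.58 peaks per gene, the highest of the 19. Rxfp2, Stard13, Shank2, Prkcz and Dscam are named because at least 8 members lay inside each, a limit chosen after the values were seen.

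Chromosome 15 had the window with the largest excess over its own chromosome, 2.59 times. Its 89 members stood at 44.5 per Mb, against 17.2 per Mb in the rest. Of these, 15 summits lay within 97.0 kb (mm10, chr15:103250373-103347380), the most in any 100 kb of the distal windows. This stretch covers the genes Nfe2, an erythroid transcription factor, Copz1, a coat protein of transport vesicles, Gpr84, Zfp385a and Itga5, the alpha chain of the fibronectin receptor. Zfp385a, a zinc-finger gene, had 7 members within 5 kb, the strongest of signal 253. The whole Hoxc cluster, homeobox genes that pattern the body axis, lay in the same window, and 6 of its 9 genes had a member within 5 kb, beside 248 of all 480 coding genes of the distal windows (51.7%). The peaks there were of middling signal. Hoxc10 had 2 members within 5 kb, the stronger at 125, Hoxc9 and Hoxc8 shared one of 108, and Hoxc6, Hoxc5 and Hoxc4 shared one of 71.4. Hoxc13, Hoxc12 and Hoxc11 had none, and Hoxc13 lay 37748 bp from the nearest.

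On chromosome 7 the window joined the end of the imprinted distal cluster with the Fgf3 to Ccnd1 region, and held 88 members, 44.0 per Mb against 20.1 per Mb in the rest. Of the 8 genes of the imprinted list in it, 6 had a member within 5 kb, beside the same 51.7% of all coding genes of the windows. Osbpl5, a lipid-transfer protein gene, had 5 inside, the strongest at 257. Phlda2, which restrains placental growth, had 2 within 5 kb and a strongest signal of 190.4, and Cdkn1c, an inhibitor of the cell cycle, had 1, 3069 bp away, at 94.2. Slc22a18, Nap1l4 and Dhcr7 had members inside, at up to 143, 153 and 119, whereas Tnfrsf22 and Tnfrsf23 had none within 5 kb. Kcnq1 and the genes before it in the cluster lie outside the window.

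Further along, Shank2, a scaffold of excitatory synapses, had 18 members in 448 kb. Then came 14 summits within 91.2 kb over Fgf4, Fgf15, LTO1 and Ccnd1, a D-type cyclin. Fgf15, a secreted growth factor, had 4 members within 5 kb, the strongest at 109, and Fgf3 had 1 at 155, 3009 bp away. Fgf4, a growth factor made by embryonic stem cells, had none within 5 kb, and its nearest lay 9829 bp away with a signal of 44.4. The 2 Fgf genes of other windows, Fgf10 and Fgf14, had 1 and 3 members inside. In all, 4 of 5 Fgf genes had a member within 5 kb, beside that 51.7% over all windows. These 5 genes are few, and those other than Fgf10 and Fgf14 lie in the dense chromosome 7 window.

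The windows of chromosomes 2, 4 and 11 had 67, 70 and 70 members over 55, 57 and 65 coding genes. Their GC content on mm9 was 47.7%, 49.9% and 48.1%, and with chromosome 7 they were the most GC-rich of the 19. Prkcz on chromosome 4, an atypical protein kinase C, held 9 members at 8.88 per 100 kb. On chromosome 11, 10 summits lay within 94.9 kb over a run of 6 genes that ends at Arhgdia, an inhibitor that keeps small GTPases in the cytosol.

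**Figure D2:**
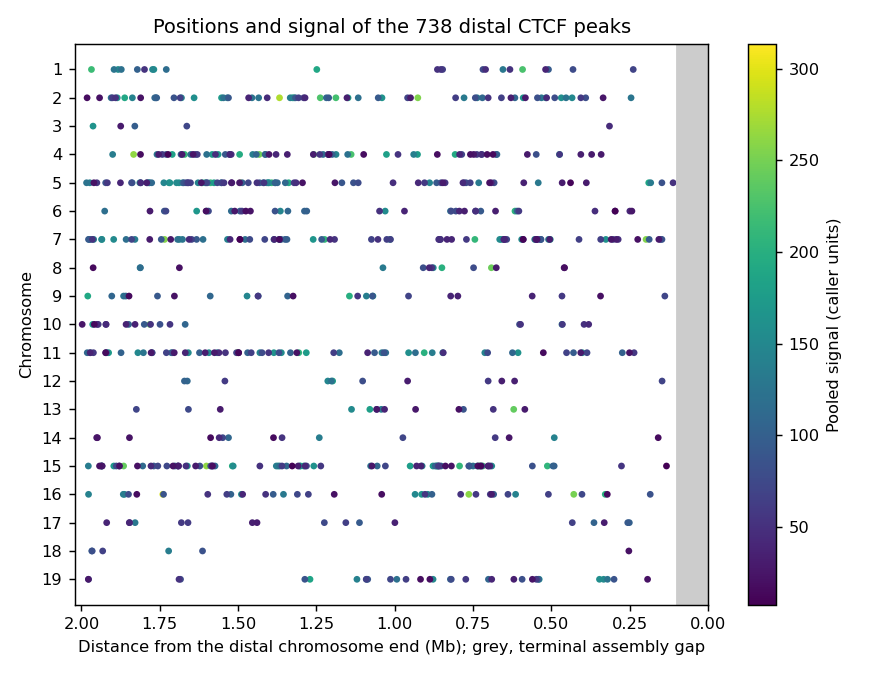
Each point is one of the 738 members, placed by its distance from the distal end in Mb, with chromosomes on separate rows, and coloured by pooled signal. Members crowd on chromosomes 5, 7 and 15, and long stretches without a point can be seen on chromosomes 3, 10 and 18.

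At the other extreme, the windows of chromosomes 3 and 18 held 5 and 6 members, against 13.04 and 14.4 per Mb in the rest of those chromosomes. Both had a stretch of over 1.3 Mb without a member, 1349 kb on chromosome 3 and 1360.3 kb on chromosome 18. Each stretch held 2 whole coding genes. On chromosome 3, 4 of the 5 members lay in Lrrc7, a postsynaptic scaffold gene, the strongest at 164. Rpe65, the isomerase of the visual cycle, and Wls, which carries Wnt proteins to the cell surface, had none within 5 kb. Chromosome 17 had 17 members and only 3 coding genes, of which Mettl4 had 2 members inside and Adcyap1, a neuropeptide gene, none within 5 kb.

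The authors' pooled list, which adds background regions to the peaks, was thinner in the same windows. It had 50.5 and 46.0 entries per Mb in the windows of chromosomes 3 and 18, and 218 and 246 in those of chromosomes 15 and 2. Over the 19 chromosomes the distal windows held 131 ± 71.5 entries per Mb and the rest 125 ± 18.1 (SD, n = 19), with a mean log2 ratio of -0.13 ± 0.75 (exact permutation p = 0.459, adjusted p = 0.877). Peaks per 100 entries were 13.2 ± 4.84 in distal windows and 14.1 ± 1.21 in the rest. The part of mappable or covered sequence in the counts was not tested.

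The largest gene family of the windows lay in a stretch with no peak. On chromosome 10, 1067 kb (mm10, chr10:129026198-130093063) held 0 members, 52 coding genes and 51 entries of the pooled list, and 51 of the 52 genes encode olfactory receptors, the odour sensors of nasal neurons. None of the 58 olfactory receptor genes in the distal windows had a member within 5 kb, and their median distance to one was 246106 bp. Over all coding genes of the windows that distance had a median of 4460.5 bp. Chromosome 10 thus had 80 genes, 22 members and 0.275 peaks per gene, the lowest of the 19. The windows held 8 genes of chemokine receptors, cell-surface guides of immune cell movement. Of these 3 had a member within 5 kb (37.5%), among them Ccr9 and Ccr3 on chromosome 9, at 39.1 and 37.0. Of the 9 Zfp genes 3 had one (33.3%), Zfp385a, Zfp950 and Zfp512b. Of all coding genes of the 19 windows together 51.7% had one, and the windows differ widely in peak density. On chromosome 13 the last 485 kb before the terminal gap held 10 coding genes and 0 members, with 7 entries of the pooled list. Tcstv3, a gene of the early embryo and the last coding gene there, lay 480237 bp from the nearest member.

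Counts of peaks and of coding genes per window went together in part. Over the 19 windows Pearson's r was 0.49 and Spearman's rank correlation 0.60, and r was 0.66 without the 2 windows farthest from the median gene count. Leaving out the olfactory and vomeronasal receptor genes, r was 0.67 and the rank correlation 0.66, or r = 0.61 without the 2 farthest. These are descriptions over windows that share the same 2 libraries and differ in length of unique sequence and base composition. Gene density itself was 12.6 ± 12.2 per Mb in distal windows and 8.63 ± 2.53 per Mb in the rest, and the mean log2 ratio was -0.12 ± 1.45 (exact permutation p = 0.719, adjusted p = 0.877). Peaks per gene were 2.44 ± 1.89 in distal windows and 2.11 ± 0.284 in the rest, with a mean log2 ratio of -0.20 ± 1.24 (exact permutation p = 0.496, adjusted p = 0.877).

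**Figure D3:**
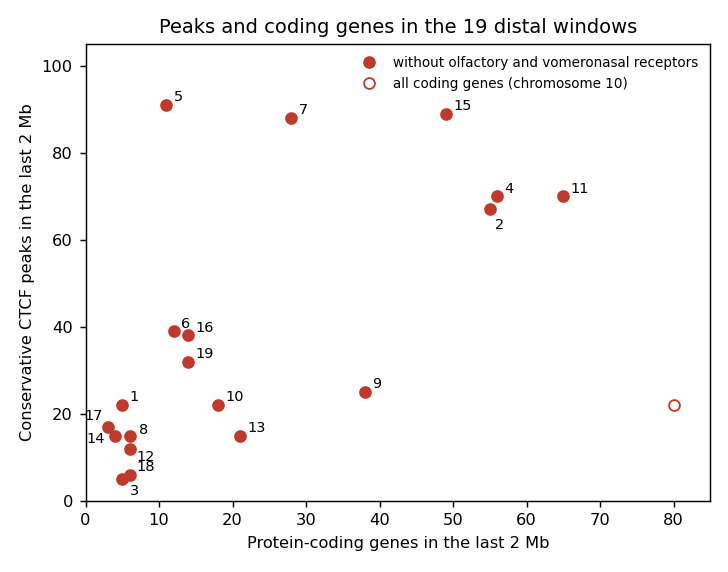
CTCF peaks against protein-coding genes in the last 2 Mb of each autosome, numbered by chromosome, with olfactory and vomeronasal receptor genes left out (filled) and, for chromosome 10, with them (open). Chromosome 5 has 91 peaks over few genes, and chromosome 10 moves to 80 genes at 22 peaks when its receptor genes are counted.

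Peaks were sparsest nearest the end. From 0.1 to 0.5 Mb from the end, all 19 chromosomes together had 81 members, 10.7 per Mb, and from 0.5 to 1 Mb they had 21.6 per Mb. The next steps of 0.5 Mb had 20.0 and 27.6 per Mb, and between 2 and 4 Mb there were 30.9 per Mb, the highest of the bins out to 30 Mb. Entries of the pooled list were also fewest nearest the end, 92.5 per Mb from 0.1 to 0.5 Mb and 171 per Mb from 2 to 4 Mb. Coding genes were not, at 11.4 and 10.3 per Mb in those bins. The median pooled signal was 66.5 and 69.6 in the outer steps up to 1 Mb, and 94.7 and 89.7 in the steps from 1 to 2 Mb.

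**Figure D4:**
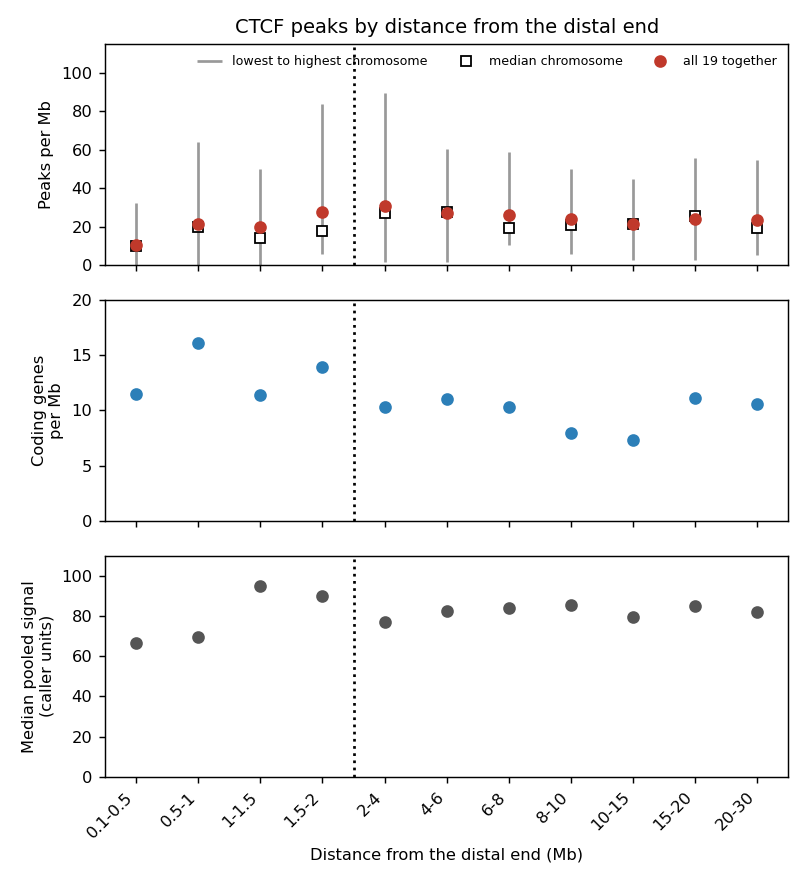
Peaks per Mb (top), protein-coding genes per Mb (middle) and median pooled signal (bottom) by distance from the distal end, over the 19 autosomes. The dotted line marks 2 Mb, and grey bars span the lowest to the highest chromosome. The outermost bin has 10.7 peaks per Mb and the bin from 2 to 4 Mb has 30.9.

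With windows of 1 Mb in place of 2 Mb, the mean log2 ratio to the rest of the chromosome was -0.78 for density and -0.31 for median signal (n = 19 and 17 chromosomes, exact permutation, adjusted p = 0.226 and 0.110). With windows of 5 Mb the density ratio was 0.24 on the log2 scale, so the direction of the density comparison depends on the length of the window. None of these passed the threshold of 0.05.

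The outermost member lay 112 kb from the end on chromosome 5, with a signal of 51.2, and 585 kb from the end on chromosome 13, with a signal of 29.7. The median over chromosomes was 239 kb. These outermost peaks were not strong. The highest of the 19, at Polr3k on chromosome 2, a subunit gene of RNA polymerase III, had a signal of 126, and the lowest, near Mucl2 on chromosome 15, had 8.004. The last coding gene of the chromosome had a member within 5 kb on 3 of the 19. These were Rfc3, a clamp-loader subunit of DNA replication, at 189, Fgf14, a regulator of sodium channels, at 143, and Tmem196 at 68.7. At the other limit of the windows, the last peaks inside lay 1997, 1983 and 1982 kb from the end with signals of 25.5, 124 and 18.3. The first ones outside lay at 2001, 2003 and 2003 kb with 57.0, 93.6 and 19.5.

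Signal in distal peaks differed from that of peaks elsewhere by less than the spread between chromosomes. Pooled signal, on the scale of the authors' peak caller, had quartiles of 44.5, 81.1 and 132 in the distal windows, of 37.6, 77.8 and 125 in the proximal windows and of 41.7, 78.3 and 126 in the rest. The mean log2 ratio of median signal per chromosome, distal against rest, was -0.017 ± 0.307 (n = 19, 10 higher and 9 lower, exact permutation p = 0.823, adjusted p = 0.877). Its 95% t interval as a ratio was 0.892 to 1.10. Against the proximal windows the mean log2 ratio was 0.12 ± 0.43, on the 18 chromosomes with at least 3 peaks in both (exact permutation p = 0.245, adjusted p = 0.877). Medians of single windows ran from 42.6 on chromosome 14 to 108 on chromosome 2, and those of the rest from 73.2 to 82.0. The sign of the comparison with the rest turned when chromosome 10, 14 or 17 was left out, with log2 ratios of 0.012, 0.031 and 0.00084.

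**Figure D5:**
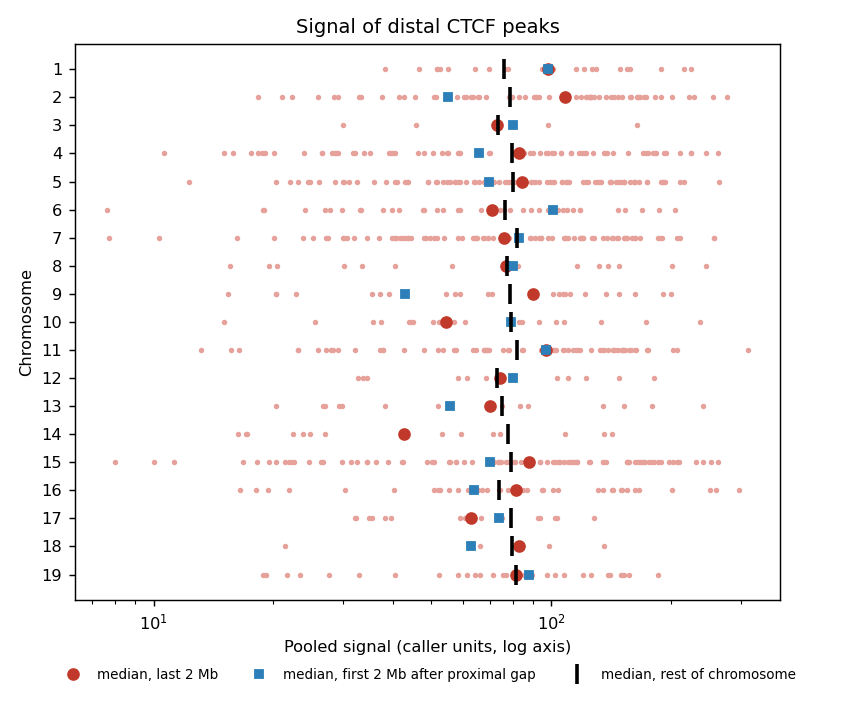
Pooled signal of each member (small points, log axis) by chromosome, with the median of the last 2 Mb (circles), of the first 2 Mb after the proximal gap (squares, none for chromosome 14) and of the rest of the chromosome (bars). The distal medians lie between 42.6 and 108 and those of the rest between 73.2 and 82.0.

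Among the strongest 10000 autosomal peaks were 189 members, 25.6% of them (95% Clopper-Pearson interval 22.5 to 28.9), beside 23.5% of proximal peaks and 23.6% of the rest. Intervals cover counting error only, and neighbouring peaks are not independent. The strongest member lay inside Arhgdia (mm10, chr11:120579725-120580004), 1503 kb from the end, and ranked 99 among autosomal peaks. Its pooled signal was 313, with 152 in replicate 1 and 161 in replicate 2. The second, 21 bp from Pcp4, a small calmodulin-binding protein gene (chr16:96467455-96467713), had 296 pooled, 142 in replicate 1 and 154 in replicate 2. The third lay 3157 bp from Slc17a9, a transporter that loads nucleotides into vesicles (chr2:180745298-180745590), with 277 pooled, 146 in replicate 1 and 131 in replicate 2. All 3 had over 3 times the replicate's median signal over matched autosomal peaks.

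The other 7 of the 10 strongest lay in or near Fry, Actrt2, Amhr2, Bace2, Tpcn2, Osbpl5 and Ppdpf, with pooled signals from 255 to 264. Amhr2 is the receptor of anti-Müllerian hormone and Bace2 a protease that cuts the amyloid precursor. Tpcn2, a cation channel of lysosomes, had its peak inside the gene only 198 kb from the end of chromosome 7 (chr7:145243172-145243423), the closest of the 10, with a signal of 144 in replicate 1 and 116 in replicate 2. On chromosomes 14, 17 and 18 the strongest members, in Fgf14, near Adcyap1 and in Rttn, had 143, 128 and 136. They ranked 7653, 10097 and 8822 among autosomal peaks.

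Members inside coding genes numbered 368 of 738, or 49.9%, beside 49.6% of the rest, where coding genes covered 40.5% of the distal windows and 41.0% of the rest. Neighbouring summits were 17.7 kb apart at the median in distal windows, 19.2 kb in proximal windows and 20.8 kb in the rest, and 34.2%, 32.0% and 32.4% of the spacings were under 10 kb. On the mm9 pooled list, 69 of 763 distal peaks lay within 1000 bp of a coding transcription start, or 9.04% (95% Clopper-Pearson interval 7.10 to 11.3), and 7.56% of the rest. In the replicates' own mm9 lists the promoter share was 9.21 ± 0.152% in distal windows and 7.46 ± 0.0184% in the rest (SD, n = 2). Chromosome by chromosome the difference was -0.225 ± 6.27 percentage points, with 7 chromosomes higher and 12 lower (exact permutation p = 0.877, adjusted p = 0.877).

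In mm10, 16 promoters of the RefSeq table of GRCm38.p6, each 250 bases before to 50 after the start, held a member's summit, and 4 of these had the CTCF motif. Of all 20084 coding promoters of that length 3.69% had it. Those promoters were not chosen for holding a peak, so the 2 shares are not alike. The score was set on flanking windows shorter than these promoters. A pair from chromosome 4 is printed because both hold a high-scoring motif close to the summit and yet differ widely in signal. Capitals again mark the motif.
Ttc34, chr4:154837166-154837465, plus strand: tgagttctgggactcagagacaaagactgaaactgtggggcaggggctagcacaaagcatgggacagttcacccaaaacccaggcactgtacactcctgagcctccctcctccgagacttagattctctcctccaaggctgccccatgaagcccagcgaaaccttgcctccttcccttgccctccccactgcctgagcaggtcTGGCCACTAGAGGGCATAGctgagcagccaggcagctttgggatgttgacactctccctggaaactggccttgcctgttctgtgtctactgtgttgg
Mrpl20, chr4:155802628-155802927, plus strand: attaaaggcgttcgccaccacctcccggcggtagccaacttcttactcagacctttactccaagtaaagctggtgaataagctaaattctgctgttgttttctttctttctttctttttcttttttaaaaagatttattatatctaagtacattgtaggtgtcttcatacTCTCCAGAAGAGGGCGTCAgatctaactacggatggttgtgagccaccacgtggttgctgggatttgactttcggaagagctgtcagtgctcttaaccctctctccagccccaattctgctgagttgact
The motif began at base 204 of the Ttc34 promoter and at base 171 of the Mrpl20 promoter, counted from the 5′ end, and scored 21.0 and 20.4 bits. Its centre was 2 and 12 bp from the summit. The Ttc34 peak, at a gene for a tetratricopeptide repeat protein, had a signal of 211, with 97.7 in replicate 1 and 114 in replicate 2. The Mrpl20 peak, at a gene for a mitochondrial ribosomal protein, had 19.03, with 9.85 in replicate 1 and 8.92 in replicate 2. The Ttc34 peak was the higher in both libraries, but the pair was chosen by the pooled signal of these same libraries. The strongest promoter peaks, those of Pcp4 and Ppdpf, had no motif at the score used.

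The share of peaks with the CTCF motif differed by less than the spread between chromosomes. On mm9, 389 of 763 distal peaks had it within 50 bp of the midpoint, or 51.0% (95% Clopper-Pearson interval 47.4 to 54.6), and 50.8% of the rest, at a score that 1.00% of flanking windows reached. In the replicates' own lists the share was 52.4 ± 4.02% in distal windows and 51.2 ± 2.93% in the rest (SD, n = 2). By chromosome the difference was 2.12 ± 9.58 percentage points, higher on 12 and lower on 7 (exact permutation p = 0.343, adjusted p = 0.877), with a 95% t interval of -2.50 to 6.73. The motif was refined on peaks of the rest of odd-numbered chromosomes, which are counted in the rest here. On the even-numbered chromosomes, which gave it no peaks, the difference was 4.69 ± 7.99 percentage points (n = 9, exact permutation, adjusted p = 0.877). The motif stood on the plus strand in 186 of the 389 distal peaks with one, 47.8%, and in 49.8% of the rest. Of distal promoter peaks 27 had the motif, 39.1%, and of the other distal peaks 52.2%. In the rest of the autosomes these shares were 33.2% and 52.2%. Median fold enrichment was 12.24 in distal peaks with the motif and 13.01 in those without, and 11.96 and 12.38 in the rest. Distal mm9 peaks had a median width of 927 bp, so the motif was not sought over their whole length.

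The separate calls on mm9 gave distal windows on both sides of the rest as well. Their density was 20.1 ± 14.8 peaks per Mb, and that of the rest 16.05 ± 3.20, with a mean log2 ratio per chromosome of -0.11 ± 1.11 (n = 19, 10 higher and 9 lower, exact permutation p = 0.677, adjusted p = 0.877). Fold enrichment had a median of 12.7 in distal peaks and 12.1 in the rest, and the mean log2 ratio by chromosome was -0.025 ± 0.233 (exact permutation p = 0.641, adjusted p = 0.877). The ends of the builds differ, as Nnt shows, whose mm9 peak lay 153 kb from the end of chromosome 13, so windows of the 2 builds do not hold the same peaks.

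The 2 libraries were then compared with each other. Each replicate's own list was first cut to its strongest entries, as many as the conservative set has on the autosomes. Replicate 1's cut list had 746 summits in the distal windows and replicate 2's had 751, or 19.7 ± 0.0930 per Mb, and 17.6 per Mb in the rest (SD, n = 2). The cut sets the total of each list, so the like densities of the rest do not measure agreement in peak number. The ratio of median signal, distal over rest, was 1.04 ± 0.0123. The conservative set keeps peaks that were reproducible between these same 2 libraries. That choice favours matches and small differences between replicates, in members and in the rest alike. Of the 738 members 709 had a summit within 100 bp in the uncut lists of both replicates, background included. Of these 25 differed over 2-fold in relative signal, that is, signal over the replicate's median, or 3.53% (95% Clopper-Pearson interval 2.29 to 5.16). Over all matched autosomal peaks the share was 3.16%, so the members' share lay near the background. Higher in replicate 2 were 17 of the 25 and higher in replicate 1 were 8, beside 659 and 591 in the rest of the autosomes. The SD of the log2 ratio between replicates was 0.43 in members and 0.44 in the rest.

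The members that differed most between replicates were weak or of middling signal. A peak inside Bicd1, an adaptor of the dynein motor, on chromosome 6 stood at 0.92 of the replicate's median in replicate 1 and at 0.36 of it in replicate 2. One in Dscam, a neuronal adhesion molecule whose gene held 12 members, had 1.19 and 0.54, and one near Fgf15 had 0.56 and 0.26. In the other direction, a peak near Plxna2, a semaphorin receptor, had 0.29 in replicate 1 and 0.91 in replicate 2. Those in Fadd, an adaptor of death receptors, and near Fam3b had 0.32 and 0.42 in replicate 1, and 0.90 and 1.14 in replicate 2. None of the 10 strongest members was among them.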

How the data were processed

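CTCF ChIP-seq peak lists of 2 libraries of 1 cell line were used. Per the deposited file descriptions, the mm10 lists hold a caller signal for every peak, on a scale the authors do not state: lists of peaks and background for each replicate and for both pooled, and conservative and optimal sets thresholded by IDR, a test of reproducibility between replicates. The deposited mm9 broad-peak lists give a fold enrichment, a ratio on the authors' scale. For caller, aligner and IDR version the sources used here name none. No read counts are given, so the depth is unknown.

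Members and gene lists were chosen with earlier results of these data known. Summits were placed on mm10 chromosome lengths, which are public constants entered by hand, since no mm10 genome was used; every entry of the pooled list ended at least 100.7 kb before those ends. Log2 ratios (percentage points for shares) per chromosome were tested by exact two-sided sign-flip permutation, with Benjamini-Hochberg adjustment over 11 tests at 0.05 (Python 3.11.15, NumPy 2.4.6, SciPy 1.17.1, pandas 2.3.3, pysam 0.24.0, samtools 1.23.1). The test and the motif model were run on simulated data. The simulated spread between chromosomes was smaller than that of the density ratios here, so those runs do not give the power of the test here. The rest of a chromosome ran from 3 Mb to the distal window and included the proximal window. Genes on mm10 came from RefSeq (GRCm38.p6). Starts were known for 79.6% of the windows' coding genes, too few, so the promoter share used the mm9 pooled list with GENCODE vM1, a departure from the design. On mm9, peaks were placed by midpoint, and a 19 bp motif was refined on the 5000 strongest non-distal peaks of odd-numbered chromosomes and called at 13.7 bits, the score 1% of windows 2000 bp beyond the peak edges reach.

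Named are the 10 strongest members, the strongest and the outermost of each chromosome, the 3 per direction with the largest ratio between replicates, the last coding genes and up to 3 genes per list, with exceptions stated; 1 item the rule takes is not reported here. For the Hoxc, Fgf and imprinted lists more genes are named. Alternatives covered window length, peak set, signal cut, gap handling, motif and promoter settings, each replicate's own list alone and each chromosome left out.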

Additional observations from a re-analysis of the deposited data

How the results depend on the processing

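No alternative passed the threshold of 0.05, as the main comparisons did not, so directions alone are compared. The lowest adjusted p of any alternative was 0.110, for median signal in windows of 1 Mb. Of 142 alternative values, 128 kept their direction and side of the threshold. Many of them left a single chromosome out of the same mean, so the count is not one of independent checks. The values for replicate agreement have no test, so no side of the threshold applies to them. Values are mean log2 ratios unless a unit is given, and the cause of each turn was not tested.

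Windows of 5 Mb turned density against the rest to 0.24, mm9 density to 0.27 and peaks per gene to 0.32. Windows of 1 Mb turned density against the proximal window to -0.044 and median signal against it to -0.058. Among the 10000 strongest peaks, median signal turned to 0.0060 against the rest and -0.018 against the proximal window. Without chromosome 14 density against the proximal window was 0.032. Without chromosome 10, 14 or 17 median signal was 0.012, 0.031 and 0.00084 against the rest. A promoter of 250 bp gave 0.223 percentage points, and a motif score that 0.1% of flanks reach gave -0.875 percentage points. Differing over 1.5-fold between replicates were 17.5% of matched members and 17.3% of matched peaks in the rest of the autosomes.

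Using replicate 2's or replicate 1's list alone, mm9 fold enrichment was 0.018 and -0.040, and it was the only result whose direction turned in these lists. No paired analysis was possible because both replicates belong to a single group. The promoter share was not run on the optimal set or on the mm10 lists. Added after seeing the data were the distal end at the last list entry, genes without chemosensory receptors, mm9 density per known base and the motif on even-numbered chromosomes; all kept their direction. Without read counts, what depth limits cannot be given. With 19 chromosomes, intervals as wide as those printed limit what the comparisons can show.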
